A study of Rattus norvegicus with 21 samples.

Results

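A set of 34 transcripts, of 30404 quantified in rat brain immune cells, stood high in macrophages sorted 24h after an experimental stroke. In macrophages of a second set of libraries, titled 7D, they were bounded at 2 times the level of microglia and of sham cells. Within that bound, the 7D macrophage mean exceeded both for 29 of the 34, a count from values the rule used. The members were chosen by their measured levels, so the contrasts that chose them are given here as a description, without a test. The measure was C, the mean over a group of CPM (the expected count of a transcript per 1000000 expected counts of its library) plus 1. A transcript was kept where C was at least 15 in 24h macrophages and at least 4 times C in 24h microglia and in 24h sham cells. In the 7D set, C in macrophages had to be at most 2 times C in microglia and at most 2 times C in sham cells. Members are numbered 1 to 34 by C in 24h macrophages, from 388 down to 15.02.

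The brain holds its own macrophages, the microglia, which survey the tissue and respond to injury. After an artery is blocked and reopened, monocytes enter the damaged tissue from the blood and become macrophages, whose gene expression changes as inflammation gives way to repair. Both cell types carry the integrin subunit CD11b, and the leukocyte surface protein CD45 is low on microglia and high on cells that came from the blood.

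Polyadenylated RNA from such sorted cells was sequenced as strand-specific libraries, 21 in all, from adult rats of a strain the labels spell Winstar. Rats had a transient occlusion of the right middle cerebral artery for 90 min (MCAO), or a sham operation in which the external carotid artery was tied off. Cells came from the injured side after perfusion, with CD11b+CD45low cells sorted as microglia and CD11b+CD45high cells as macrophages. Both names stand here for the gate, and other CD11b+ cells that fall into the same gate could not be told apart. MCAO microglia, MCAO macrophages and sham microglia each had 3 libraries in the set called 24h here and 4 in the 7D set. Sham brains gave no macrophage library, so the sham group is microglia in every comparison. The protocol speaks of several rats and of biological replicates without tying a library to an animal, so p-values below measure the spread between libraries.

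Several labels disagree with each other. Replicate 3 of the 24h microglia and replicate 3 of the 24h macrophages carry a cell fraction field opposite to their titles and source names. The treatment field of all 7D libraries says 24h as well, and the 7D macrophages have the source name and cell fraction of microglia. The treatment field of the sham libraries names a PBS injection. Groups follow the titles, so a difference between the sets cannot be told apart from a difference in time, gate or library preparation. In bulk RNA of sorted cells, fewer cells of a type and less RNA per cell cannot be told apart either.

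A 24h library held 6923630 to 9668961 expected counts and a 7D library 11115359 to 15401910, with 15836 to 17351 transcripts detected. A count of 3 in 1 library, the limit set for a level of 0, came to 0.195 to 0.433 CPM. The mean fragment length implied by the deposited effective lengths was 157 to 171 nt among 24h libraries and 178 to 193 nt among 7D libraries. The files carry Ensembl transcript identifiers without gene names, and 0 of the 30404 were found in a RefSeq table of 47357 rat genes. The role of each member is therefore not given, and the labelled cell types could not be checked against marker genes. For the same reason no sequence is shown. Identifiers are printed for 3 members only, the highest 2 in 24h macrophages and the largest falls in 7D microglia.

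Together the 34 members made up 0.176% to 0.254% of the expected counts of a 24h macrophage library. Their summed level was 2374, 1759 and 2543 CPM in 24h macrophage replicates 1, 2 and 3, with Wilson 95% intervals of 2343 to 2406, 1730 to 1787 and 2511 to 2575 that cover counting error only. It was 308 to 417 CPM in the 24h microglia and 273 to 305 CPM in the 24h sham libraries. In the 7D set the sum came to 395, 453, 372 and 474 CPM in macrophage replicates 1 to 4, to 241 to 283 CPM in microglia and to 277 to 313 CPM in sham cells. Members 1 to 3 alone made up 38.9% to 41.3% of the sum in 24h macrophage libraries and 43.9% to 57.8% in 7D libraries. By this sum, the 7D macrophages lay far below the 24h macrophages and still above every 7D microglia and sham library. Group means were 2225 ± 413 CPM (SD, n = 3) for 24h macrophages, 358 ± 55.0 (n = 3) for 24h microglia and 289 ± 15.9 (n = 3) for 24h sham. For the 7D set they were 423 ± 47.8 (n = 4) in macrophages, 263 ± 17.6 (n = 4) in microglia and 300 ± 16.2 (n = 4) in sham.

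**Figure D1:**
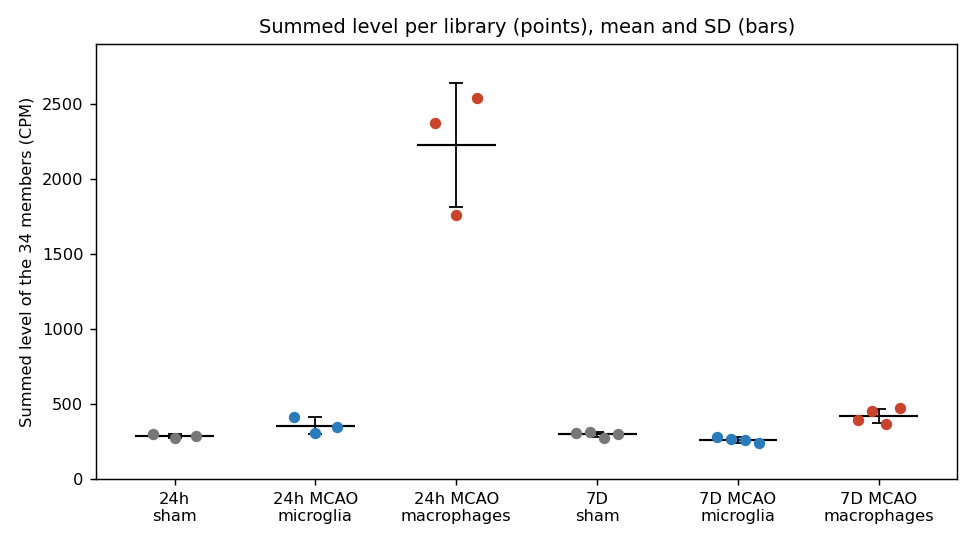
Summed level of the 34 members in CPM (vertical axis) for each of the 21 libraries (points), with the mean and SD of each group (bars). The 3 libraries of 24h macrophages sit between 1759 and 2543 CPM, and all others between 241 and 474 CPM.

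Member 1, ENSRNOT00000006119, a transcript of 3745 nt, had the highest CPM. It stood at 416, 340 and 406 CPM in the 24h macrophages, at 105, 81.8 and 87.7 in the 24h microglia and at 81.0, 69.1 and 74.1 in the 24h sham cells. Its 7D levels were 128, 142, 120 and 128 CPM in macrophages, 74.0 to 92.4 in microglia and 79.8 to 90.5 in sham cells. Neither microglia nor sham cells lacked this transcript at any time, and macrophages were the highest group in both sets without overlap. Its C in 7D macrophages was 33.6% of that in 24h macrophages.

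Member 2, ENSRNOT00000038222, of 1758 nt, was measured at 299, 237 and 319 CPM in 24h macrophages. The 24h microglia held 57.9, 49.6 and 45.0 CPM of it and the 24h sham cells 61.5, 43.8 and 61.8, so that these groups overlapped. In the 7D set the order of the groups was another one. Sham cells were highest at 42.6, 52.1, 44.9 and 64.1 CPM, macrophages followed at 23.9, 32.7, 22.2 and 42.7, and microglia were lowest at 19.6, 16.4, 17.6 and 13. Every 7D microglia library lay below every 7D macrophage and sham library, and the highest macrophage library just passed the lowest sham library. C of member 2 in 7D macrophages was 0.605 times that in 7D sham cells, the lowest such ratio of the 34.

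Member 3 is the shortest transcript of the set at 489 nt. Its levels in 24h macrophages were 242, 150 and 265 CPM, against 43.8, 30.2 and 38.2 in microglia and 23.4, 21.0 and 22.5 in sham cells. In the 7D macrophages it stood at 29.7, 26.8, 24.9 and 55.5 CPM, the last of these from replicate 4. The 7D microglia held 20.1 to 22.8 CPM and the 7D sham cells 19.6 to 33.4, which overlapped with the macrophages.

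Members 4, 5 and 6 completed the 6 members with a mean of at least 100 CPM in 24h macrophages. Member 4 (2531 nt) stood at 162, 136 and 175 CPM there and at 12.4 to 16.0 CPM in the 24h microglia and sham libraries, and at 21.6 to 27.6 CPM in 7D macrophages. Member 5 (7190 nt) was the most even of the 34 among these libraries, at 144, 137 and 148 CPM, and fell into 3 separate levels at 24h, since microglia held 36.6, 33.6 and 30.1 CPM and sham cells 19.5, 19.5 and 20.3. Member 6 (3235 nt) was likewise even, at 96.4, 104 and 107 CPM in 24h macrophages, 13.9 to 17.5 in microglia and 11.6 to 12.8 in sham cells. For all of these the 7D macrophages lay above all 7D microglia and sham libraries, at 24.6 to 30.7 CPM for member 5 and 21.6 to 24.6 CPM for member 6. These 7D levels are again values that the rule used.

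**Figure D2:**
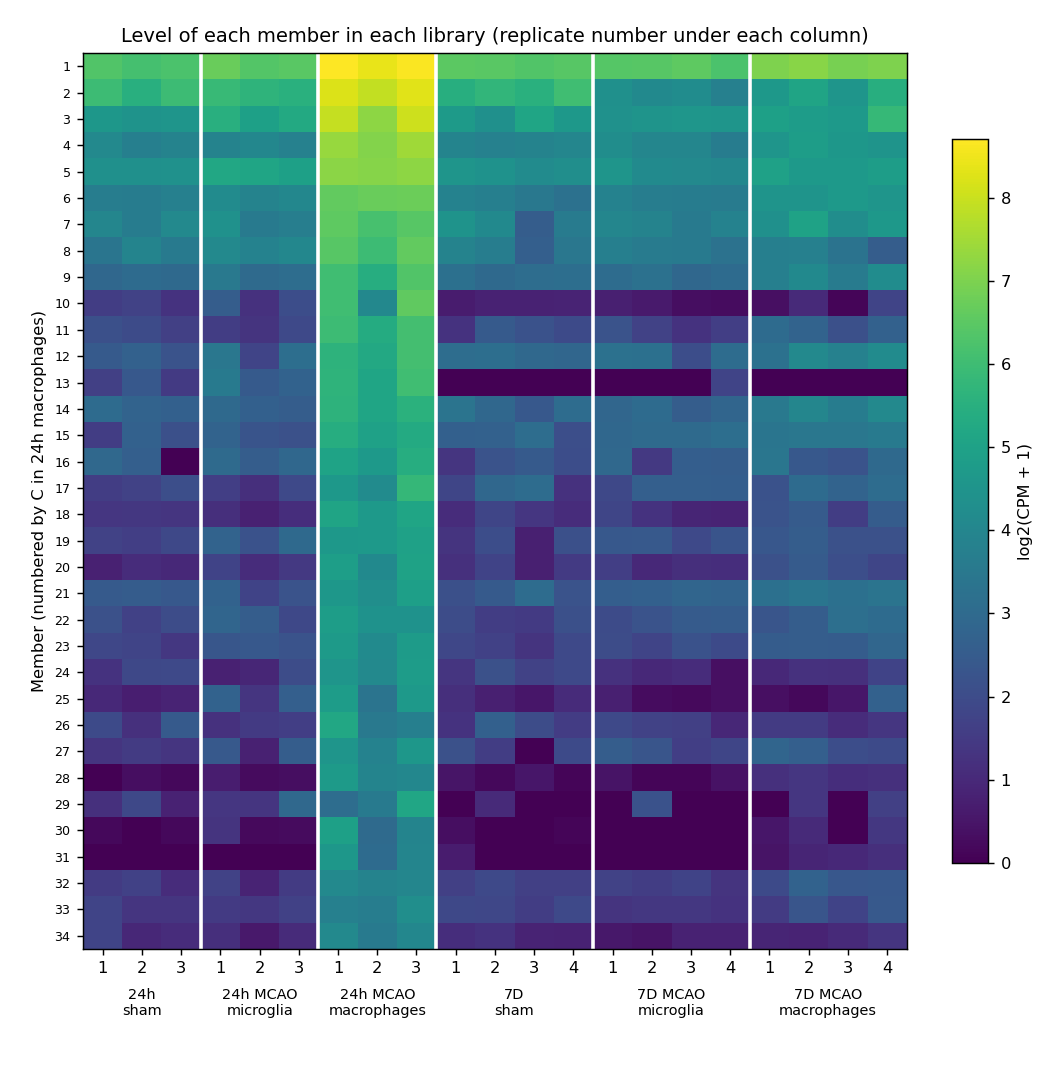
Level of each of the 34 members (rows, numbered by C in 24h macrophages) in each library (columns, with the replicate number), as log2(CPM + 1) by colour. The 3 columns of 24h macrophages are the brightest in all 34 rows, and members 1 to 7 have a mean of at least 10 CPM in all 7D groups.

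CPM compares a member across libraries but not with a longer or shorter member. On the authors' TPM scale, which divides by transcript length, member 3 led in 24h macrophages at 926 ± 266 TPM (SD, n = 3). Member 2 followed at 247 ± 38.7 TPM, and member 1 at 150 ± 15.9 and member 13 at 148 ± 47.4 did not differ beyond their spread. Next came members 11 at 98.0 ± 26.2, 4 at 92.2 ± 12.4 and 9 at 87.3 ± 27.0, which overlapped in the same way. Members 19 and 33 were lowest, at 4.19 ± 0.655 and 3.22 ± 0.848 TPM. The median length of the members was 2592 nt (489 to 8894), and that of the 7795 transcripts with C of at least 15 in 24h macrophages was 2303 nt.

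Most members were less abundant, and 16 of the 34 had a mean of 14 to 30 CPM in 24h macrophages. In both 24h microglia and 24h sham cells, 8 members had at least 10 CPM, and members 28, 30 and 31 had under 1 CPM. Member 31 (2552 nt) had an expected count of 0 in all 24h microglia and sham libraries and stood at 23.1, 7.19 and 14.7 CPM in the macrophages. Against the limit of 3 counts per library, its mean in macrophages was at least 45.5-fold higher than in microglia and at least 36.2-fold higher than in sham cells. Member 30 (5046 nt) ran beside it at 29.8, 7.01 and 14.2 CPM in 24h macrophages, and both were at 0 in all 7D microglia libraries. In 7D macrophages member 31 was detected in every library, at 0.371 to 1.27 CPM, and member 30 in all but replicate 3.

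Between these extremes, members 9, 14, 15 and 21 kept a low level in every library. Member 9 (1153 nt) stood at 65.3, 42.4 and 79.7 CPM in 24h macrophages, 6.50 to 10.5 CPM in the other 24h libraries and 11.2 to 17.9 CPM in 7D macrophages. Member 14 (2867 nt), at 48.5, 33.3 and 45.7 CPM in 24h macrophages, had the highest ratio over 7D microglia inside the bound, at 10.5, 14.8, 11.7 and 16.2 CPM against 4.94 to 7.33. Member 21 (1360 nt) kept the largest share of its 24h level, 39.2%, with 23.5, 18.7 and 29.4 CPM in 24h macrophages and 8.17, 9.32, 8.30 and 9.22 CPM in 7D macrophages.

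Members 18 and 28 were scarcer outside macrophages. Member 18 (1935 nt) stood at 33.0, 24.4 and 33.3 CPM in 24h macrophages and at 0.724 to 1.68 CPM in the other 24h libraries. Member 28 (2286 nt) stood at 25.7, 14.3 and 15.4 CPM against 0 to 0.622 CPM, and all 4 of its 7D macrophage libraries (1.22 to 1.57 CPM) lay above all other 7D libraries (0.0755 to 0.427 CPM). Members 17 and 26 each stood far higher in 1 of the 24h macrophage libraries than in the others. Member 17 (890 nt) stood at 23.9, 17.2 and 54.0 CPM in 24h macrophages, and member 26 (2038 nt) at 36.2, 10.5 and 12.6 CPM. In the 7D set the groups of member 26 overlapped, at 1.14 to 1.86 CPM in macrophages, 0.977 to 2.79 in microglia and 1.40 to 5.41 in sham cells.

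The 5 members with a mean under 1 CPM in each 7D group were 10, 13, 29, 30 and 31, which are singled out here after their values were seen. Member 13 (621 nt) went furthest, from 49.2, 34 and 64.5 CPM in 24h macrophages to 0 in all 7D macrophage and sham libraries. Against the limit of 3 counts per library, its mean in 24h macrophages was at least 220-fold higher than in 7D macrophages, across sets that differ in more than time. One 7D microglia library, replicate 4, still held 2.44 CPM of it. Member 10 (4037 nt) dropped from 64.6, 15.7 and 93.7 CPM to between 0.0874 and 2.47 CPM in 7D macrophages, where sham cells held 0.576 to 0.810. Member 29 (3543 nt) was uneven throughout, at 7.62, 11.0 and 34.3 CPM in 24h macrophages and at 0 in 3 of 4 microglia, 2 of 4 macrophage and 3 of 4 sham libraries of the 7D set.

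RSEM, which made the counts, divides reads shared by isoforms or near-identical copies, so a member can change because reads were divided differently. Expected counts were whole (within 0.001) in every library for 23 members (67.6%), and for 75.5% of the 7795 transcripts above. Members 8, 16, 27 and 29 had counts that were not whole in over 10 of the 21 libraries, and members 9, 13, 30, 31 and 34 in 8 to 10. For these 9 members the levels of 0 and the unevenness are levels of a divided estimate, and the part of that division in them was not tested. A count of 0 is whole by this measure. Members 13, 29 and 31 had 11, 8 and 13 libraries at 0, and none of their counts above 0 was whole.

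Macrophages were higher by the rule in the 24h set. Every 24h macrophage library lay above every 24h microglia library for 34 of 34 members, beside 40.1% of the 7795 transcripts with C of at least 15 in 24h macrophages. It lay above every 24h sham library for 34 of 34, beside 46.1%. Ratios of C had a median of 6.25 over microglia (4.14 to 18.7) and of 7.82 over sham cells (4.53 to 20.2), where the 7795 transcripts had medians of 1.07 and 1.10. Member 11 (960 nt) had the largest ratio over microglia, with 62.0, 39.8 and 67.8 CPM against 1.97, 1.45 and 2.81. The largest over sham cells, 20.2, belonged to member 10. Every 24h macrophage library also lay above every 7D library for all 34, which the values used by the rule largely fix.

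The macrophages of both sets were also set side by side, as a description, since the rule used the levels of both. C in 7D macrophages was under 25% of C in 24h macrophages for 23 members, 25% to under 50% for 11 and at least 50% for 0. The median was 17.7% (1.99% to 39.2%), where the 7795 transcripts, chosen for their level alone, had a median of 88.2%. Low percentages were also found among the other transcripts that were high in 24h macrophages. Of the 318 transcripts that met the 24h conditions alone, 34 (10.7%) were members, and the other 284 had a median of 23.9% (1.43% to 192%).

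What the 7D conditions selected was a small distance from the other 7D cells. Among the 284 others, 46 exceeded 2 times 7D microglia only, 63 exceeded 2 times 7D sham only and 175 exceeded both. The members had median ratios of 1.55 over 7D microglia (0.621 to 1.99) and 1.61 over 7D sham (0.605 to 1.99), against 2.96 and 3.11 for the others. They were also lower in 24h macrophages, with a median C of 32.0 against 62.3. Their median ratio over 24h microglia was 6.25 against 9.40.

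**Figure D3:**
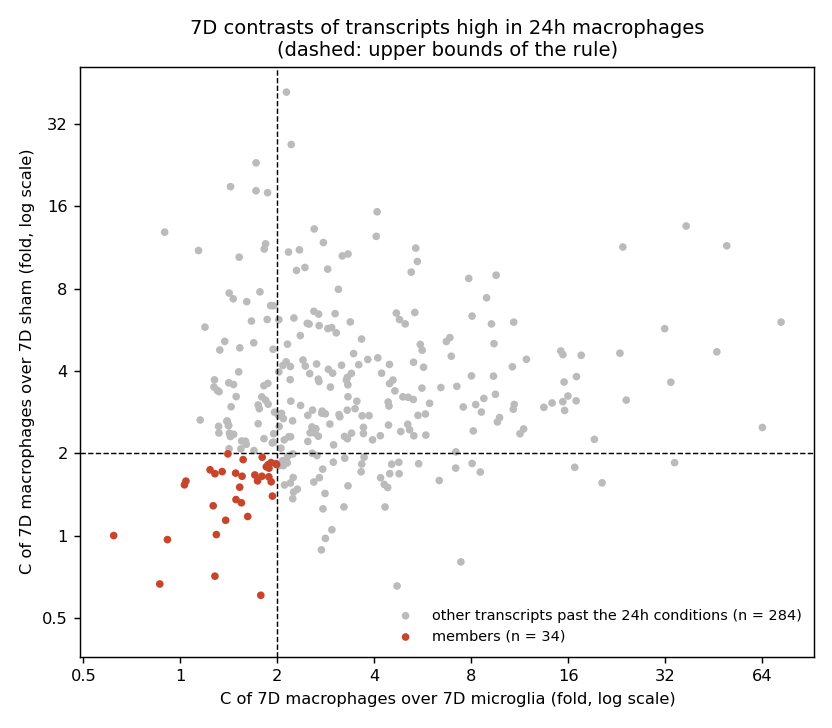
Ratio of C in 7D macrophages to 7D microglia (horizontal, log scale) and to 7D sham (vertical, log scale) for the 318 transcripts that met the 24h conditions. Red points are the 34 members, grey points the other 284, and dashed lines the bounds of 2, with 19 members at 1.5 to 2 times 7D microglia.

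The position of the 7D macrophages within these bounds is given as a description. C in 7D macrophages exceeded that in 7D microglia for 31 members, beside 43.3% of the 7795 transcripts. It exceeded that in 7D sham for 29 members, beside 49.0%. It exceeded both for 29 members and lay below both for 2, members 8 and 26. All 4 macrophage libraries lay above all 7D microglia libraries for 18 members, beside 12.8% of the 7795 transcripts, and above all 7D sham libraries for 15, beside 29.6%. All these counts come from contrasts that the rule bounded from above. The transcripts were chosen as high in 24h macrophages, so nothing is read from the counts. Member 4 stood higher in 7D macrophages, at 22.5, 27.6, 23.5 and 21.6 CPM against 11.6 to 18.3 in microglia and 13.2 to 14.9 in sham cells. Member 8 (6735 nt) shows the opposite, at 12.4, 13, 9.03 and 4.92 CPM against 8.80 to 12.5 and 5.21 to 13.9, with all 3 groups overlapping. Against TMM normalisation, plain CPM lowered 7D macrophages relative to 7D sham by 0.128 on the log2 scale over all transcripts, and 28 transcripts met the rule on TMM-normalised values, 27 of them members.

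Members stood close to the bounds. Inside, the nearest ratios were 1.991 over 7D microglia and 1.99 over 7D sham, and outside they were 2.03 and 2.047. For the 24h bounds the nearest were 4.145 inside and 3.882 outside over microglia, and 4.529 and 3.888 over sham. The lowest C inside was 15.02 and the highest outside 14.38. Membership moved with single libraries, from 28 transcripts without 7D microglia replicate 1 to 49 without 24h macrophage replicate 2, and 45 without 7D macrophage replicate 4. Of the 34, 12 were members in all 21 runs that left out 1 library. Without both libraries of opposite cell fraction the rule gave 31 transcripts, 29 of them members.

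Among the 24h macrophages, replicate 2 was the lowest library for 31 of 34 members and the highest for 0, while it was the lowest for 34.6% and the highest for 39.5% of all transcripts. Its members deviated from the group mean of log2(CPM + 1) by a median of −0.36, where replicates 1 and 3 deviated by 0.12 and 0.21. The same medians over all transcripts were 0.01, 0.01 and −0.02. The other 284 transcripts moved the same way, with a sum of 81593, 63153 and 84734 CPM in replicates 1 to 3. The ratio of the highest to the lowest 24h macrophage library had a median of 1.63 for the members (1.08 to 5.97), against 1.18 for the 7795 transcripts. Members 10, 29 and 30 had the widest spread, with 93.7 against 15.7 CPM for member 10.

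In the 7D macrophages, replicate 4 was the highest library for 17 of the 33 members detected there, beside 20.7% of all transcripts. Median deviations were −0.11, 0.14, −0.12 and 0.23 in replicates 1 to 4. Member 25 (1098 nt) differed most, at 5.52 CPM in replicate 4 and 0.287, 0.149 and 0.437 CPM in the others. Chi3l1, a chitinase-like protein of inflamed tissue, and Nos2, the inducible nitric oxide synthase, are the genes the files name. Both also stood highest in that library, at 33.9 CPM for Chi3l1 against 4.45 to 7.78 in replicates 1 to 3, and at 23.1 CPM for Nos2 against 0 to 1.16. Neither met the rule, since C in 7D macrophages was 4.08 times that in 7D microglia for Chi3l1 and 6.32 times for Nos2. At 24h Nos2 passed the bound of 4 over microglia narrowly, at 4.03. Its libraries overlapped there, at 6.09 to 33.1 CPM in macrophages and 0.621 to 9.51 CPM in microglia. The 7D ratio of Nos2 rests on replicate 4: without that library it was 1.32 over 7D microglia and 0.43 over 7D sham, and Nos2 met the rule. The ratio of Chi3l1 over 7D microglia was then 2.15, and Chi3l1 still did not meet the rule. This alternative was chosen after seeing the data.

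**Figure D4:**
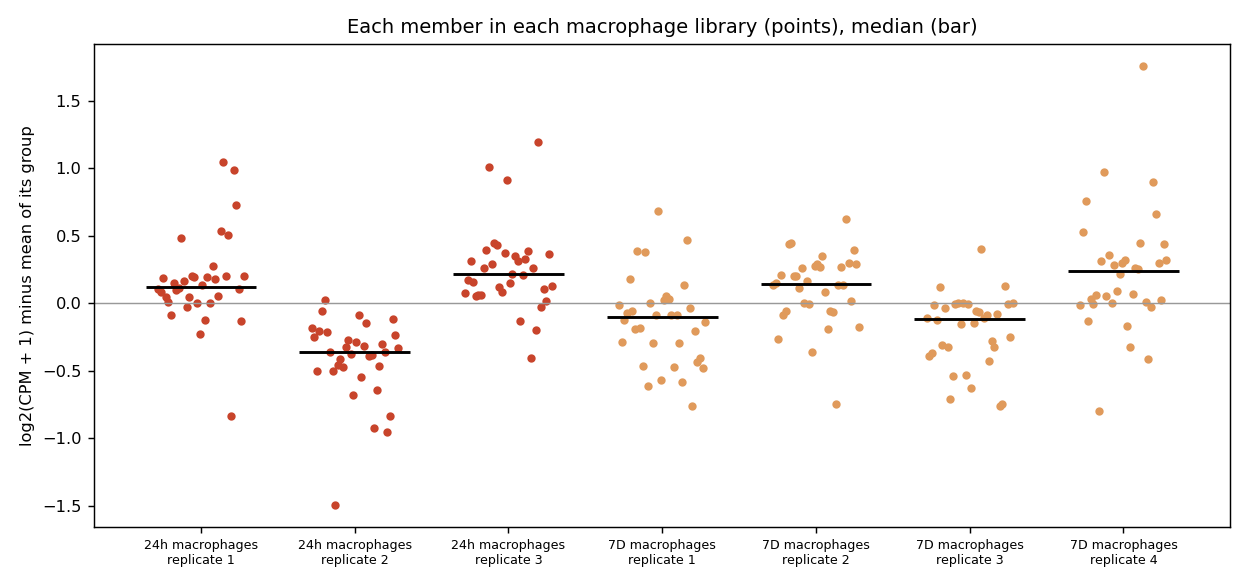
Deviation of each member (points) from the mean of its group in each macrophage library, in log2(CPM + 1), with the median of the 34 members (bars). The medians run from −0.36 in 24h replicate 2 to 0.21 in 24h replicate 3 and from −0.12 to 0.23 in the 7D libraries.

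Microglia against sham cells is a comparison the rule did not use. In the 24h set, 8 of 34 members rose in MCAO microglia and 0 fell (edgeR quasi-likelihood test, adjusted p under 0.05). Over all 13081 transcripts tested, 24.8% rose and 20.7% fell. The share of members that rose is thus near that of all transcripts. All 34 passed the filter on low counts, 29 of them also in a fit of microglia and sham cells alone, and 26 were not called. Estimates were higher in 23 members and lower in 10, with a median of 0.41 on the log2 scale (−0.66 to 2.70) beside 0.00 for all transcripts. Their standard errors were wide, with a median of 0.35 against 0.16.

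Member 5 gave the firmest of these rises, by 0.84 ± 0.09 (log2, SE, adjusted p = 0.00016), from the separate levels given above. Member 3 rose by 0.82 ± 0.23 (adjusted p = 0.016), with all microglia libraries at 30.2 CPM or more and all sham libraries at 23.4 CPM or less. Member 1 rose by 0.37 ± 0.12 (adjusted p = 0.029) and member 6 by 0.45 ± 0.10 (adjusted p = 0.0066), small shifts without overlap. Among the scarcer members, member 19 (8894 nt), at 5.80, 3.62 and 6.85 CPM in microglia and 2.31, 2.06 and 2.67 in sham cells, rose by 1.28 ± 0.25 (adjusted p = 0.0036). Member 23 (1635 nt) rose by 0.91 ± 0.25 (adjusted p = 0.018), from 1.69 to 2.60 CPM in sham cells to 3.67 to 4.24 CPM in microglia. Member 13 rose by 1.41 ± 0.46 (adjusted p = 0.033), at 10.8, 4.51 and 5.68 CPM against 2.16, 4.28 and 1.78.

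The largest rise past the threshold was that of member 25, at 5.59, 1.55 and 5.26 CPM in microglia against 1.01, 0.644 and 0.844 in sham cells, by 2.37 ± 0.64 (adjusted p = 0.015). Member 30 had a larger estimate, 2.70 ± 1.36, that did not pass (adjusted p = 0.14), since microglia replicate 1 held 1.48 CPM and the others 0.167 and 0.196. Member 2 gave −0.05 ± 0.17 (adjusted p = 0.84) and member 4 gave 0.09 ± 0.15 (adjusted p = 0.63).

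Macrophage-high transcripts moved together with 1 microglia library. Microglia replicate 1 was the highest of its group for 23 of the 33 members detected there (45.4% of all transcripts) and replicate 2 the lowest for 24 (45.7%). The other 284 transcripts summed to 11941, 5871 and 8324 CPM in these microglia and to 3708 to 5063 CPM in sham cells. Whether macrophage RNA in the microglia gate takes part in the rises was not tested. The median estimate of 0.41 became 0.25 without microglia replicate 1, 0.49 without replicate 2 and 0.44 without replicate 3. Without microglia replicate 1, 4 members rose, and members 1, 3, 13 and 25 were no longer called. Without sham replicate 2 the number was 5, with members 1, 3 and 25 not called, and without sham replicate 3 it was 5, with members 1, 13 and 23 not called. Member 13 was also not called without sham replicate 1. Members 5, 6 and 19 stayed called without any 1 of the libraries, and with both libraries of opposite cell fraction left out 7 members rose and 1 fell.

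**Figure D5:**
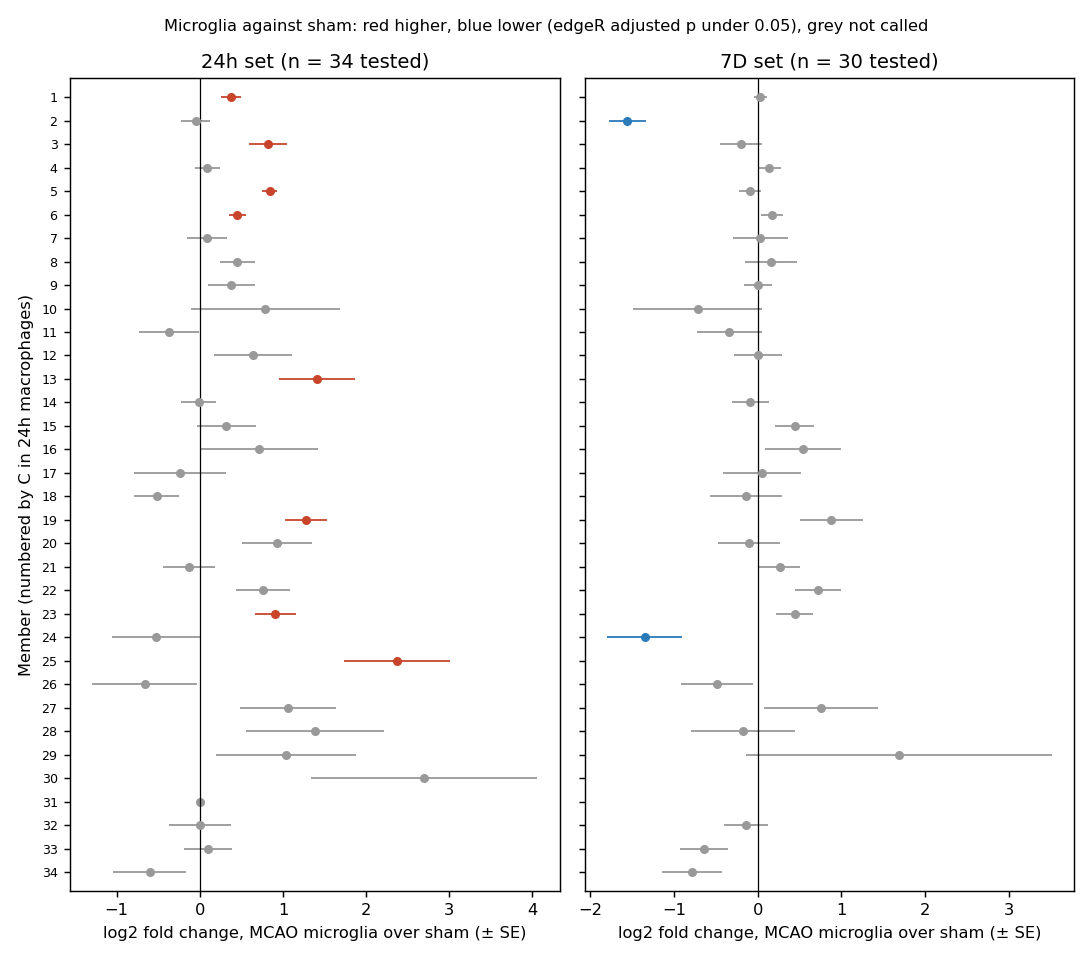
Log2 fold change of MCAO microglia over sham with its SE (horizontal) for each member (vertical) in the 24h set (left, 34 tested) and the 7D set (right, 30 tested). Red marks the 8 rises and blue the 2 falls with an edgeR adjusted p under 0.05, and grey the members not called.

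In the 7D set, 30 members passed the filter on low counts, and members 13, 25, 30 and 31 were not tested. MCAO microglia were called higher than sham cells for 0 members and lower for 2, and 28 were not called (edgeR, adjusted p under 0.05). Over all 13384 transcripts tested, 22.9% rose and 23.2% fell. At an unadjusted p under 0.05 there were 5 members in either direction, and DESeq2 called 3, of which 1 was higher. The median estimate was 0.00 (−1.56 to 1.69), with 15 higher and 15 lower. The filter used all groups of the set, macrophages included. In a fit of microglia and sham cells alone 27 members passed. It called 3, all lower, 2 of them in common with the fit above.

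Member 2 fell by 1.56 on the log2 scale (SE 0.22, adjusted p = 0.00013), that is 2.94-fold, with the separate microglia and sham levels given above. This call held in all 19 alternatives, with adjusted p from 1.6e-10 to 0.00073. Member 24, ENSRNOT00000023888, of 5047 nt, fell by 1.35 (SE 0.45, adjusted p = 0.027), at 1.39, 0.982, 1.15 and 0.279 CPM in microglia against 1.56, 3.42, 2.30 and 2.79 in sham cells. It was a scarce transcript there, and in 24h macrophages it stood at 22.3, 16.2 and 27.1 CPM. Its groups did not overlap, yet the call was lost without 7D microglia replicate 2, sham replicate 2 or sham replicate 4, with adjusted p from 0.013 to 0.078 over the alternatives. Member 22 (2632 nt) was nearest to a rise, at 0.72 ± 0.28 (adjusted p = 0.052). Members 1 and 5 gave 0.03 ± 0.08 (adjusted p = 0.81) and −0.09 ± 0.13 (adjusted p = 0.60). Without sham replicate 3, 4 members were called, and without microglia replicate 2, 1.

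The change of microglia against sham was also compared between the sets, as an interaction over all 21 libraries. It was lower in the 7D set for 2 of 34 members and higher for 0 (edgeR, adjusted p under 0.05), beside 1.71% lower and 0.470% higher of 14252 transcripts. All 34 passed the filter on low counts over these libraries, macrophages included. Member 31 had no usable estimate here, with a standard error of 9009.53 on the log2 scale. Member 5 differed by −0.91 ± 0.17 (adjusted p = 0.0075), since it rose in 24h microglia and its 7D microglia (15.3 to 22.5 CPM) overlapped with 7D sham (17.2 to 22.5 CPM). Member 2 differed by −1.49 ± 0.31 (adjusted p = 0.012), with overlapping 24h groups and the fall in the 7D set. Both kept the direction and the call without any 1 library, and lost the call with the 2 conflicting 24h libraries grouped by their cell fraction field. Members 3 and 25 had an unadjusted p of 0.017 each and an adjusted p of 0.20 in edgeR. For the 7 other members called at 24h, a difference between the sets is not shown.

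Between the sham groups of both sets, 0 of 34 members were called by edgeR, beside 1.67% of transcripts called higher and 1.04% called lower in the 7D set. At an unadjusted p under 0.05 there were 3, and DESeq2 and limma-voom each called 1, lower in the 7D set. The median estimate was 0.11, beside 0.05 for all transcripts. Member 13 came nearest (adjusted p = 0.057), at 2.16, 4.28 and 1.78 CPM in 24h sham and 0 in all 7D sham libraries. Member 1, at 69.1 to 81.0 CPM in 24h sham and 79.8 to 90.5 CPM in 7D sham, gave 0.26 ± 0.10 (adjusted p = 0.18). All 34 members passed the filter on low counts over all libraries, macrophages included. In a fit of the 2 sham groups alone 31 passed, and 0 were called.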

How the data were processed

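Expected counts, which RSEM estimates per transcript, were deposited for each library in a file of its own, per the file headers. The submitters' processing notes name bcl2fastq, TopHat2, RSEM and rn5. Their versions are not given in the sources used here. The authors deposited TPM, which is scaled by transcript length, and it was used here to compare members and as an alternative. The lines named Chi3l1 and Nos2 sit 2 columns to the right of their headers and were read there as a separate quantification.

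The members and lists were chosen with earlier results of these data known. Libraries were grouped by title. Expected counts were rounded and tested in edgeR 4.0.16 (R 4.3.3) with the quasi-likelihood F-test, TMM normalisation and filterByExpr (minimum count 10, minimum total 15), 1 term per group. Fits within a set used all 3 groups of it, and fits between sets all 21 libraries. P-values were adjusted by Benjamini-Hochberg over all transcripts tested, with a threshold of 0.05. Standard errors are approximate, from the fold change and its F statistic. On simulated counts of the 24h set, with 12819 transcripts tested, 64.0% of 2-fold rises were recovered, and in the 7D set 93.6% (13295 tested). For the interaction between sets 36.0% of 2-fold rises and 24.5% of 2-fold falls were recovered (13564 tested), so that many differences of this size would be missed. The simulation gave all transcripts a common dispersion. Members spread more, with a median coefficient of variation of 33.2% among 24h microglia libraries against 9.24% for the 7795 transcripts. By the rule they were also low in microglia, and counting error at low counts was not separated from this spread. Recovery among the members may therefore be lower than these shares.

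Lists of marker genes and pathways were not used because identifiers had no names. The rule for printing identifiers was the 2 members with the highest C in 24h macrophages and the 2 with the largest falls past the threshold in 7D microglia, which gave 3. Alternatives were each library left out, DESeq2 1.42.0, DESeq2 size factors, limma-voom (limma 3.58.1), no filter on low counts, other sets of libraries in the fit, a replicate block, the conflicting labels, and other bounds, constants and units in the rule.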

Additional observations from a re-analysis of the deposited data

Results flagged for a closer look

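A member in a group of the 7D set gave a set of 4 libraries, and 98 such sets held counts. In 4 of them 1 library alone had counts, which meets Dixon's criterion for a library far from the others by construction. Of the other 94, 6 (6.38%) met it, where chance gives about 1 in 20. Of these 6, 3 were in 7D macrophage replicate 4. There member 3 stood at 55.5 CPM (others 24.9 to 29.7), member 23 at 6.36 CPM (others 4.72 to 4.92) and member 25 at 5.52 CPM (others 0.149 to 0.437). In 7D microglia, member 13 stood at 2.44 CPM in replicate 4 and member 29 at 3.53 CPM in replicate 2, with the others at 0, and member 17 at 2.71 CPM in replicate 1 (others 5.02 to 5.20). In 7D sham cells, member 29 stood at 1.06 CPM in replicate 2 and member 31 at 0.593 CPM in replicate 1, with the others at 0. Member 32 stood at 2.78 CPM in sham replicate 2 (others 2.13 to 2.16) and member 33 at 1.96 CPM in sham replicate 3 (others 2.63 to 2.77).

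The change of microglia against sham differed between the 7D and the 24h set for member 2, by −1.49, and for member 5, by −0.91, on the log2 scale (edgeR interaction test, adjusted p = 0.012 and 0.0075).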

How the results depend on the processing

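The rule gave 34 transcripts. It gave 52 with a constant of 2 added to CPM, 68 and 16 with 3-fold and 6-fold bounds at 24h, 8 and 107 with 1.5-fold and 3-fold bounds in the 7D set, and 0 with both conflicting libraries grouped by cell fraction. Without single libraries it gave 28 to 49. On the authors' TPM it gave 32, 18 of them members, and on group medians 42, 27 of them members.

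For 24h microglia against sham (8 called), limma-voom called 5, the grouping by cell fraction 1 (median log2 2.34), and leaving out single libraries 4 to 10. For 7D microglia against sham (2 called), a fit on all libraries called 5, 3 higher and 2 lower, and leaving out single libraries 1 to 4. For the interaction (2 called) the grouping by cell fraction gave 0, and single libraries left 2 to 3. Between sham groups (0 called), DESeq2 and limma-voom called 1 each and leaving out single libraries 0 to 1. The cause was not tested. Of 238 values for single called members under an alternative, 206 kept direction and call, 32 kept the direction only and 0 reversed.

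Same-numbered microglia and sham libraries did not deviate together in every pair (r = −0.02 to 0.02 at 24h, −0.07 to 0.15 in the 7D set). The best match was the same number for 7D replicates 1, 2 and 3 and not for replicate 4. At 24h it was so for replicate 2 only. Whether same-numbered libraries share a step of processing was not tested. Microglia and macrophages of 1 number deviated together, at r = 0.21 to 0.28 in the 4 pairs of the 7D set and r = 0.10 to 0.16 at 24h. In each of these pairs the best match was the same number. With the replicate block 8, 3, 2 and 0 members were called in these 4 comparisons. The 3 of the 7D set were 2 higher and 1 lower, in place of 0 higher and 2 lower, with 1 call (member 2) in common. Member 13 at 24h (edgeR adjusted p = 0.060) and member 24 in the 7D set (0.063) were then not called. At 14 to 30 CPM in 24h macrophages, 16 members had few counts in the other groups, which limits what these tests could show.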
